A study of Homo sapiens with 12 samples.

Results

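MPO, ELANE, PRTN3, AZU1, CTSG and LYZ encode proteins packed into the azurophil (primary) granules of myeloid cells. They were taken by name from 4 deposited tables of m6A differences in NOMO-1, a human acute myeloid leukaemia cell line. The 6 genes had 67 windows in all: 17 and 14 in the replicate 1 and 2 tables of guide sgMETTL16-1, and 16 and 20 in those of sgMETTL16-2. These are a small part of the 296568 windows in the 4 tables together. A window is a stretch of a transcript, in 1 or more blocks, over which reads from m6A immunoprecipitation (IP) were compared with input.

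The cells carried guide sgMETTL16-1 or sgMETTL16-2, both labelled METTL16 knockout, or the control guide sgNS, and all were grown with puromycin at 2 ug/ml. Each of the 3 guides has 2 input and 2 IP libraries of polyadenylated RNA, 12 in all. Each table sets 1 knockout guide against sgNS for 1 replicate number. The labels do not say that replicate numbers stand for separate cultures, nor that a line is clonal, and the tables give no value or depth per library, so a single value comes with no replicate error, and spread is shown only by the 2 replicate tables of a guide. Nothing used here says which sgNS libraries stand behind each table, so tables may share controls. Below 0 on the log2 scale is taken here to mean less m6A with the METTL16 guide. That sign is not stated in the tables, and the opposite one would turn every direction. The word called marks a difference with a deposited FDR below 0.05. The word enriched marks an FDR for IP against input below 0.05. For values relative to the median of all enriched windows, or with a two-sided p, called refers to an FDR recomputed from the deposited p.

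N6-methyladenosine (m6A) is a methyl mark placed on adenosines of messenger RNA, most of it by the METTL3-METTL14 complex at a short consensus with GAC at its core. METTL16 is a separate methyltransferase, known for the U6 small nuclear RNA and for hairpins of the MAT2A messenger RNA. Granule protein genes are switched on together at the promyelocyte and promonocyte stages. Their products kill microbes or digest them. ELANE (neutrophil elastase), PRTN3 (proteinase 3) and CTSG (cathepsin G) are serine proteases, and AZU1 (azurocidin) is a relative of them that has lost protease activity. MPO (myeloperoxidase) makes hypochlorous acid, and LYZ (lysozyme) cleaves bacterial cell walls.

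AZU1, PRTN3 and ELANE lie head to tail on the plus strand of chromosome 19 within 28.4 kb of GRCh38. RefSeq places AZU1 at chr19:827837-832018, PRTN3 at chr19:840999-848175 and ELANE at chr19:852303-856243. CTSG is at chr14:24573518-24576250 on the minus strand, MPO at chr17:58269855-58280935 on the minus strand and LYZ at chr12:69348381-69354234 on the plus strand. No window of another gene overlapped a window of these 6 in any table.

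The start regions of CTSG, AZU1 and PRTN3 are shown because windows of the tables begin in them. The RefSeq promoter table (GRCh38.p14) matched these 3 of the 6 genes. Each stretch runs 5′ to 3′ on the gene's strand from 30 bases before the first ATG of the transcript to the end of the table's entry, and the capitals mark GAC.
CTSG: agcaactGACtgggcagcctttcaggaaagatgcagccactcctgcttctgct
AZU1: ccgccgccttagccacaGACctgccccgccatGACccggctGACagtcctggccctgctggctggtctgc
PRTN3: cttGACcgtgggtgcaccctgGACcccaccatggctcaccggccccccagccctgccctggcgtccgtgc

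The CTSG stretch (chr14:24576201-24576253, minus strand) holds 1 GAC and lies wholly inside a longer window in each of the 4 tables. That window was not called in replicates 1 and 2 of sgMETTL16-1, at -0.023 and 0.076 on the log2 scale. With sgMETTL16-2 it was called higher as deposited. Relative to the median of all enriched windows it was at -0.059 and -0.012 in replicates 1 and 2 of sgMETTL16-2, and was not called. AZU1 (chr19:827817-827886, plus strand) holds 3 and PRTN3 (chr19:840979-841048, plus strand) 2, of which 1 is GGAC. All 3 stretches begin before the annotated start of the gene. In AZU1 and in PRTN3 1 GAC lies before that start, and in CTSG 0. The AZU1 windows of the replicate 2 tables cover 60 (sgMETTL16-1) and 61 (sgMETTL16-2) of the 70 bases and all 3 GAC. The PRTN3 window of sgMETTL16-2 replicate 2 covers 60 of the 70 bases and 1 of the 2 GAC. A GAC is common: of 35116 promoter entries, 48.6% hold it in their last 53 bases and 57.4% in their last 70. On the other strand, as GTC, the shares are 49.5% and 58.4%. GGAC contains GAC and occurs in 24.6% of entries over 70 bases. These matches describe the letters and mark no methylated site.

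Most of the enriched windows of the group belonged to the 4 serine protease family genes. Of their 36 windows 29 were enriched, against 2 of 14 for LYZ and 0 of 17 for MPO, by the authors' deposited FDR of IP over input. The MPO windows did not pass that FDR at fold enrichments of 1.48 to 4.23, so 0 of 17 does not show that MPO lacks m6A. By table, 8 of 17 and 8 of 14 windows of the 6 genes were enriched with sgMETTL16-1, where 8.1% and 11.9% of all windows were. With sgMETTL16-2 it was 7 of 16 and 8 of 20, where 10.2% and 12.3% of all windows were.

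The enrichment of these transcripts was well supported but small in size. None of the 31 enriched windows reached a fold enrichment of 2, and their median was 1.26, 1.39, 1.41 and 1.47 in the authors' deposited tables of sgMETTL16-1 replicates 1 and 2 and sgMETTL16-2 replicates 1 and 2. Over all enriched windows the medians of the authors' deposited tables were 1.78, 1.92, 1.88 and 1.89 in the same order, and between 32.3% and 44.8% of them reached 2. CTSG shows the contrast most plainly. Its window in the middle of the gene, which starts at 24574309 in the sgMETTL16-2 replicate 2 table, had the fifth smallest p of IP over input among 70002 windows, and yet a fold enrichment of 1.37 in the authors' deposited table. Only 8.92% of the enriched windows in that table had a lower fold.

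**Figure D1:**
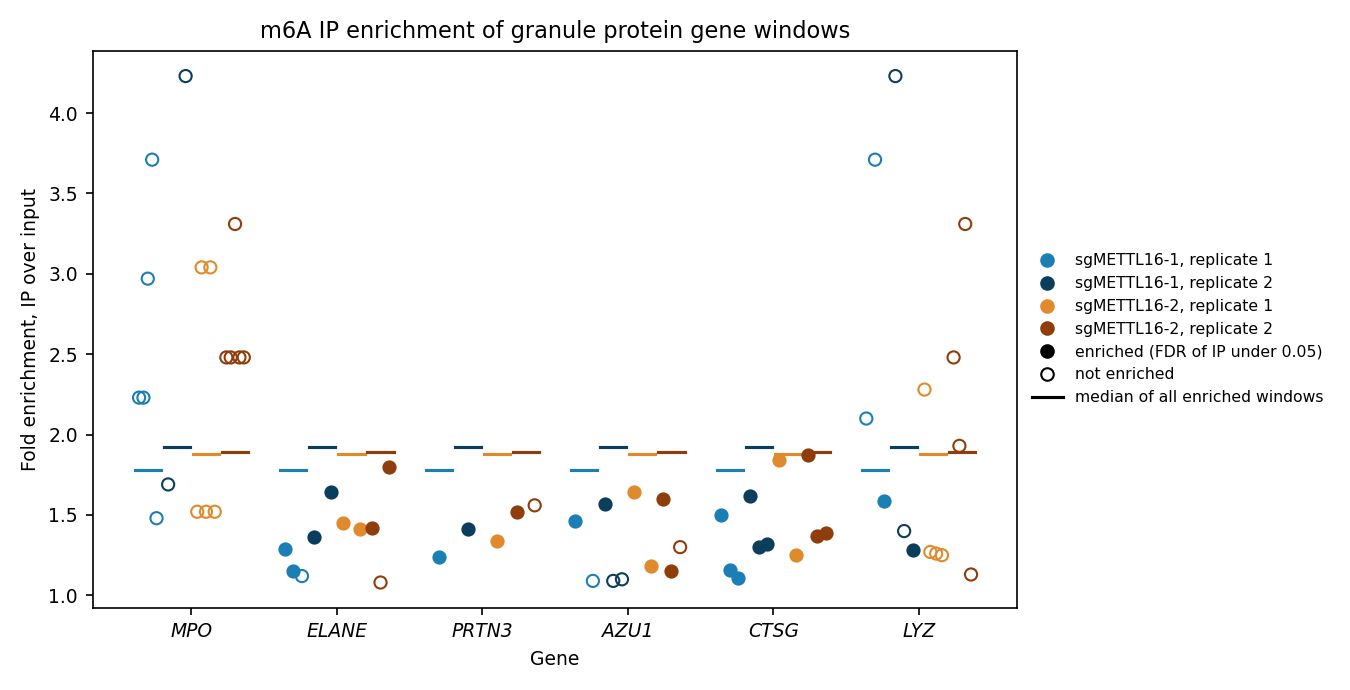
Fold enrichment of IP over input (y axis, linear) of every window of the 6 genes, by gene (x axis) and table (colour). Each point is 1 window, filled points passed the FDR of IP over input, and short bars are the median of all enriched windows of that table. Every filled point lies below its bar, while the open points of MPO and LYZ reach 4.23.

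In CTSG and AZU1 the last window of the gene had the highest fold enrichment in every table. In CTSG the 3′ window had a fold enrichment of 1.5, 1.62, 1.84 and 1.87 in the authors' deposited tables, in the order used above. The CTSG window at the 5′ end had 1.11, 1.32 and 1.39 in the authors' deposited tables where it was listed alone, all but that of sgMETTL16-2 replicate 1. In AZU1 the 3′ window had 1.46, 1.57, 1.64 and 1.6 in the authors' deposited tables, and every other AZU1 window lay between 1.09 and 1.3. PRTN3 had its only enriched window at the 3′ end, with 1.24, 1.41, 1.34 and 1.52 in the authors' deposited tables. ELANE and LYZ differed from these genes. The ELANE 5′ window exceeded the 3′ window in replicate 2 of both guides, 1.64 against 1.36 and 1.8 against 1.42 in the authors' deposited tables, and lay below it in replicate 1, 1.12 against 1.29 and 1.41 against 1.45. In LYZ the 5′ window was the only one enriched, and in MPO no window was.

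Of the 67 windows 5 were called as different from sgNS, 2 lower and 3 higher, and every one of them was in CTSG. In either direction the calls were 0, 1, 1 and 3 by table, where 0.355%, 0.749%, 1.84% and 0.734% of all windows were called. The authors' deposited table of sgMETTL16-1 replicate 1 called 0 of 17 windows, and its background was 0.281% of all windows lower and 0.0743% higher. At an unadjusted p under 0.05 that table also had 0 of 17. The table of replicate 2 called 1 of 14 lower, where 0.167% of all windows were, and 0 higher, where 0.583% were. For sgMETTL16-2 the table of replicate 1 called 1 of 16 higher (background 0.875%) and 0 lower (background 0.965%). The table of replicate 2 called 1 of 20 lower (background 0.149%) and 2 higher (background 0.586%). All 5 called windows were enriched. Among enriched windows alone the calls were 0 of 8, 1 of 8, 1 of 7 and 3 of 8, where 3.59%, 5.41%, 11.8% and 5.22% of all enriched windows were called in either direction.

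**Figure D2:**
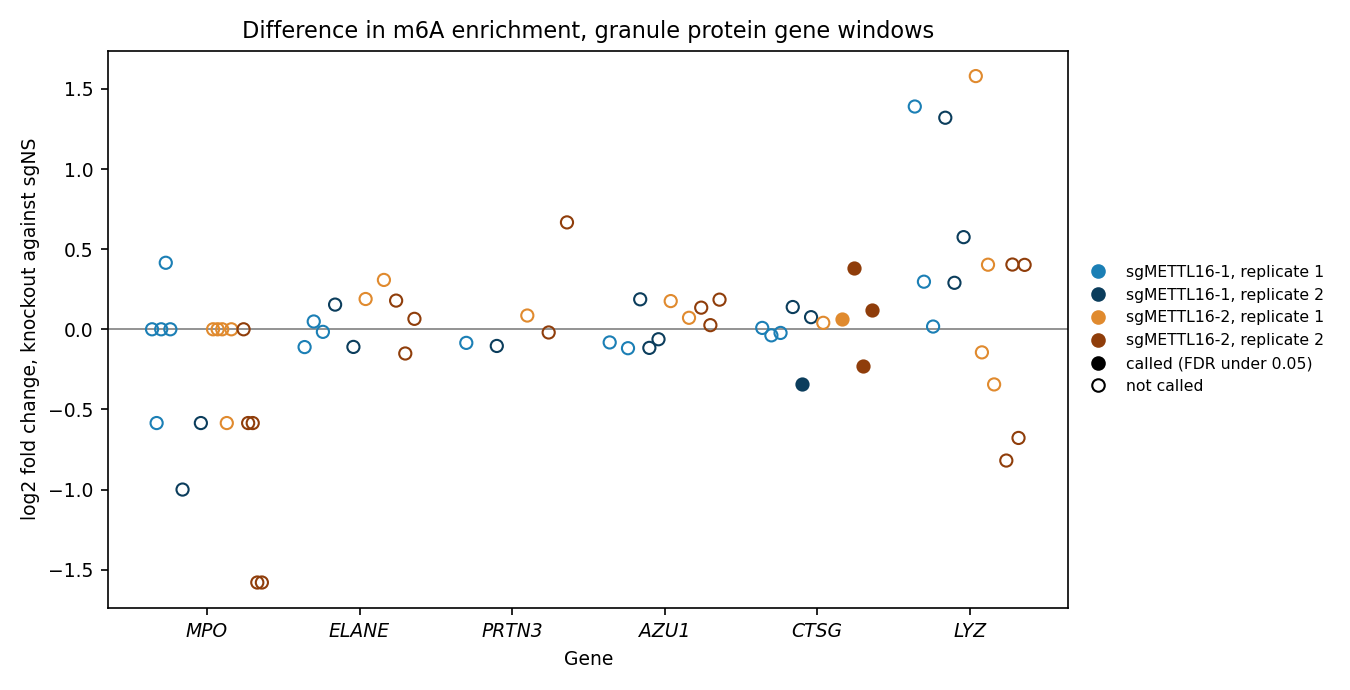
The log2 fold change between knockout and sgNS (y axis) of every window of the 6 genes, by gene (x axis) and table (colour). Each point is 1 window, and filled points passed an FDR of 0.05. All 5 filled points are CTSG windows, between -0.34 and 0.38, whereas the widest values, from -1.58 to 1.58, are uncalled windows of MPO and LYZ.

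CTSG was measured in 3 places, and they did not move together. In the middle of the gene, at chr14:24574339-24574488, m6A fell by 0.34 on the log2 scale with sgMETTL16-1 in replicate 2 (FDR = 1.26e-22, the authors' deposited table). The matching window with sgMETTL16-2 in replicate 2, chr14:24574309-24574458, fell by 0.23 (FDR = 4.47e-09, the authors' deposited table). By p these ranked 10 of 71406 and 37 of 70002 windows. In replicate 1 of sgMETTL16-1 the matching window, chr14:24574339-24574693, was at -0.038 (FDR = 0.655, the authors' deposited table). The decrease was therefore seen in the replicate 2 tables of both guides and not in the replicate 1 table of sgMETTL16-1. Whether the tables of replicate 2 share sgNS libraries is not stated.

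At the 3′ end of CTSG, from chr14:24573518, the deposited values were above 0 in each of the authors' deposited tables, though not relative to the median of all enriched windows, where they were 0.047, 0.005, -0.085 and 0.25. With sgMETTL16-1 it stood, in the authors' deposited tables, at 0.0086 (FDR = 0.655) and 0.14 (FDR = 0.172). With sgMETTL16-2 it stood, in the authors' deposited tables, at 0.04 (FDR = 0.659) and 0.38 (FDR = 3.16e-23), and only the last was called. That window ran to 24573786 and was 269 bases long, against 150 in the other 3 tables. The increase was thus called with 1 guide in 1 replicate number, where it ranked 9 of 70002 windows by p.

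The 5′ window of CTSG, which joins a block at the start of the transcript to the next block, gave -0.023 (FDR = 0.655) and 0.076 (FDR = 0.527) with sgMETTL16-1 in the authors' deposited tables. With sgMETTL16-2 in replicate 2 it was called higher at 0.12 (FDR = 0.0316, the authors' deposited table). In replicate 1 of sgMETTL16-2 the tables list no separate middle and 5′ windows. They were merged with the block between them into 1 window of 4 blocks and 537 bases, chr14:24574339-24576260, which was called higher at 0.066 (FDR = 0.0166, the authors' deposited table). This window covers stretches whose calls went opposite ways in replicate 2, so it cannot be set beside either of them. Both calls lay below the median of all enriched windows of their table, which was 0.12 in replicate 1 and 0.14 in replicate 2 in the authors' deposited tables. Relative to that median they were at -0.059 and -0.012, and neither was called. With a two-sided p the 5′ window of replicate 2 was not called either (FDR = 0.0843).

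The values given above can also be written as differences between windows of 1 table, which restates the split and is no further result. The middle of CTSG lay 0.61 below its 3′ end in log2 with sgMETTL16-2 in replicate 2, and 0.48 below it with sgMETTL16-1 in replicate 2. In replicate 1 of sgMETTL16-1 the difference, middle minus 3′ end, was -0.046. With sgMETTL16-2 in replicate 2, CTSG was 1 of 9 genes with calls in both directions, of 470 genes with any call (1.91%) in the authors' deposited table. After the median of a table's enriched windows was subtracted from its values, the middle window was at -0.47 and -0.36 and stayed called, and the 3′ window of sgMETTL16-2 replicate 2 was at 0.25 and stayed called.

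**Figure D3:**
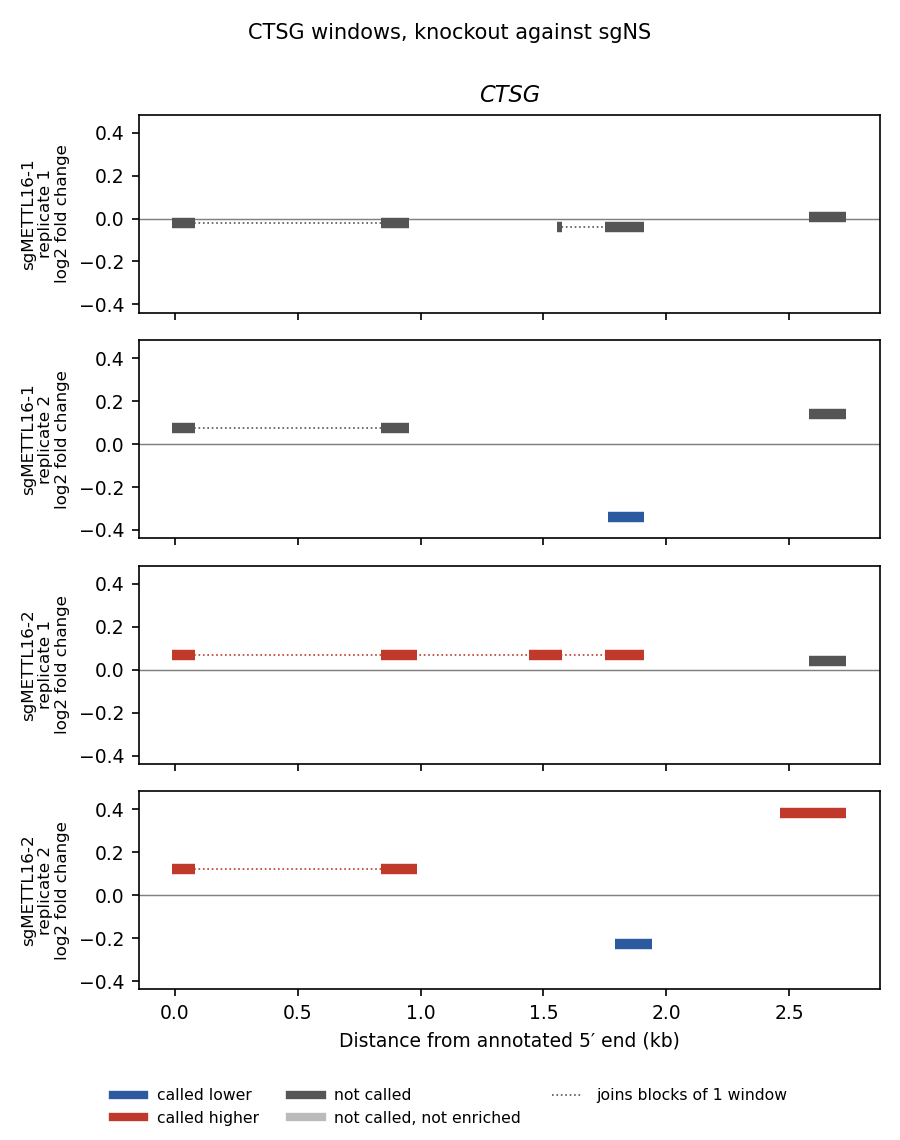
Windows of CTSG along the gene in the 4 tables (rows), with the distance from the annotated 5′ end in kb on the x axis and the log2 fold change on the y axis. Thick bars are blocks, dotted lines join the blocks of 1 window, blue and red are called lower and higher. In both replicate 2 rows the bar near 1.8 kb is blue and below 0, with the windows on either side above 0 as deposited. Relative to the median of enriched windows the 5′ bars of these rows were at -0.058 and -0.012.

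AZU1 had 3 places measured and no call. At the 3′ end, chr19:831722-832018 in the widest listing, the authors' deposited tables gave -0.082 and 0.19 for sgMETTL16-1, then 0.18 and 0.14 for sgMETTL16-2. The lowest FDR of any AZU1 window, and of any window outside CTSG, was 0.124, for that 0.19. The middle window was negative with sgMETTL16-1, -0.12 in each of the authors' deposited tables, and positive with sgMETTL16-2, 0.072 and 0.026, and no FDR was under 0.65. Relative to the median of all enriched windows all 4 were below 0, at -0.08, -0.25, -0.053 and -0.109. The 5′ window was listed in the replicate 2 tables alone, at -0.062 and 0.19 in the authors' deposited tables, and was enriched in neither.

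ELANE had its deposited 3′ values on the same side of 0 as AZU1 in each table, while relative to the enriched median the AZU1 value of sgMETTL16-2 replicate 2 was 0. Its window at chr19:856128-856246 was at 0.15 in replicate 2 of sgMETTL16-1, and for sgMETTL16-2 the authors' deposited tables gave 0.19 and 0.18, while the shorter listing in replicate 1 of sgMETTL16-1 was at -0.11. Their FDR were 0.547, 0.209, 0.386 and 0.655 in the authors' deposited tables. At the ELANE 5′ end the authors' deposited tables gave -0.016 and -0.11 for sgMETTL16-1, then 0.31 and 0.065 for sgMETTL16-2, with an FDR of 0.37 or more. Relative to the enriched median these were 0.022, -0.244, 0.183 and -0.07, so that the signs no longer followed the guide. An ELANE window listed in 1 table alone, chr19:853332-855581 of sgMETTL16-1 replicate 1, was enriched and at 0.049 in the authors' deposited table.

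No window of the 6 genes was called in both tables of a guide. Of 10 such matched windows with sgMETTL16-1, 0 were called lower and 0 higher in both tables, against 0.0449% and 0.02% of all matched windows. Of 7 with sgMETTL16-2, 0 were called either way, against 0.0613% lower and 0.529% higher. With an unadjusted p under 0.05 in both of the authors' deposited tables and 1 direction, there were 0 with sgMETTL16-1 and 2 with sgMETTL16-2. Those 2 were the 3′ windows of AZU1 (p = 0.00646 and 0.0282) and ELANE (p = 0.0112 and 0.0162), all from the authors' deposited tables. They lay close to the median of all enriched windows in the same tables, and relative to it they were at 0.051 and 0 for AZU1 and at 0.064 and 0.044 for ELANE.

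PRTN3 gave 1 window in every table, at its 3′ end, with a few bases of an earlier block in both replicate 1 tables. The authors' deposited tables gave -0.085 and -0.104 for sgMETTL16-1, then 0.086 and -0.02 for sgMETTL16-2. The FDR was at least 0.65 for each. A window at the PRTN3 start site, chr19:840985-841044, appeared in the sgMETTL16-2 replicate 2 table alone, at 0.67 with an FDR of 0.65, and was not enriched there in the authors' deposited table.

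**Figure D4:**
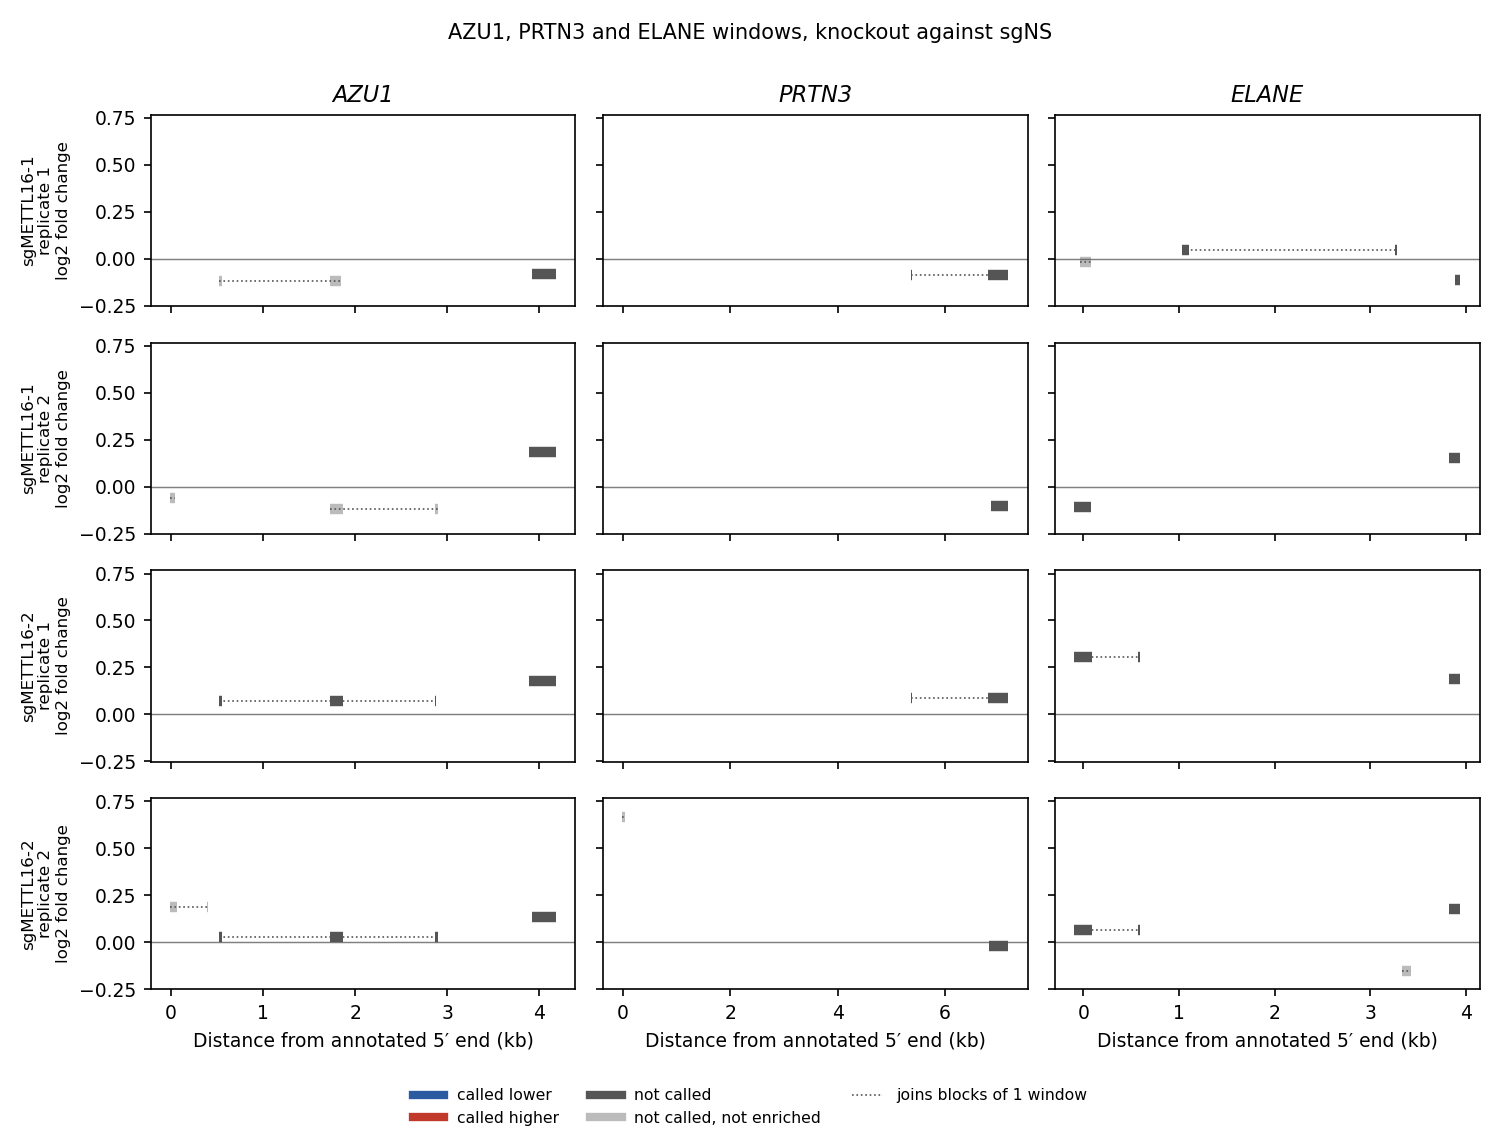
Windows of AZU1, PRTN3 and ELANE (columns) in the 4 tables (rows), with the distance from the annotated 5′ end in kb on the x axis and the log2 fold change on the y axis. Thick bars are blocks and pale bars are windows that were not enriched. No bar is coloured as called, and the 3′ windows of AZU1 and ELANE are below 0 in the top row and above 0 in the other 3 as deposited. Relative to the enriched median the AZU1 3′ window of the bottom row was at 0.

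MPO, the gene most used to mark the granule, gave no enriched window. It had 5, 2, 5 and 5 windows in the 4 tables, and in the authors' deposited tables the FDR of the IP signal was 1 for all 17. Its log2 fold changes ran from -1.58 to 0.42 with an FDR of at least 0.774 in the authors' deposited tables. All 17 equal, to 3 significant digits, the log2 of a ratio of whole numbers from 1 to 4, as do 28.6% to 31.4% of all windows. The other 5 genes had 1 such value among 50 windows, in LYZ. The largest fold enrichment of MPO, 4.23 in the authors' deposited table of sgMETTL16-1 replicate 2, belongs to a window at -0.59 with an FDR of 0.785. The amount of MPO transcript was not measured here. In these bulk libraries fewer cells with a transcript and less of it per cell cannot be told apart.

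LYZ was measured at its 5′ end and along its 3′ end. The 5′ window, in 2 or 3 blocks from chr12:69348473 or chr12:69348503, was enriched in both sgMETTL16-1 tables and in neither sgMETTL16-2 table. In replicate 2 of sgMETTL16-1 and replicate 1 of sgMETTL16-2 the FDR behind this split lay near the threshold. The authors' deposited FDR of IP over input was 3.72e-05 and 0.0417 for sgMETTL16-1, then 0.0676 and 0.593 for sgMETTL16-2. The authors' deposited tables gave 0.017 and 0.575 for sgMETTL16-1, then -0.34 and 0.4 for sgMETTL16-2, and the FDR was at least 0.432. For the last LYZ window the authors' deposited tables gave 1.39 and 1.32 for sgMETTL16-1, then 1.58 and -0.82 for sgMETTL16-2, with an FDR of 0.65 or more and no enrichment. The 2 values furthest from each other are of 1 guide, though that at 1.58 covers only the last 60 bases and was not matched to the others.

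Over all windows of the 6 genes the median log2 fold change in the authors' deposited tables was 0 and 0.0068 for sgMETTL16-1, then 0.053 and 0.013 for sgMETTL16-2, where the median of all windows was 0 each time. Among enriched windows it was -0.03, 0.11, 0.086 and 0.094 for the 6 genes and -0.038, 0.13, 0.12 and 0.14 for all genes. These medians include the 17 MPO windows and the CTSG windows called in opposite directions, and so do not describe single members. Of 8231 other genes with at least 3 windows in each of the 4 tables, NUS1, TBC1D24 and NRBP1 had gene medians nearest to those of the 6 genes, with root mean square differences of 0.012, 0.017 and 0.019 over the 4 tables.

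The wider granule pathway was read from 5 lists of 55 genes, of which 49 had a window. In the order used above, 2, 3, 8 and 1 of their 188, 176, 186 and 173 windows were called, or 1.06%, 1.7%, 4.3% and 0.578%, where 0.355%, 0.749%, 1.84% and 0.734% of all windows were. The table with 8 calls is also the one with the most calls over all windows. Of the windows of the lists 38, 37, 37 and 37 were enriched, where 8.1%, 11.9%, 10.2% and 12.3% of all windows were. Over all genes 3.59%, 5.41%, 11.8% and 5.22% of enriched windows were called, more than of all windows. How far the number of enriched windows accounts for the calls of the lists was not tested. CEBPA, which drives granulocyte and monocyte commitment and activates granule genes, was the only listed gene with calls of the same direction in both replicates of a guide. It was called higher in all 4 of the authors' deposited tables, between 0.24 and 0.49. The other calls among the 9 transcription factors of granule genes were higher and in replicate 1 of sgMETTL16-2 alone: GFI1 at 0.55, SPI1 at 0.36 and CEBPE at 0.45 in the authors' deposited table. By table, 1 of 43, 1 of 42, 4 of 42 and 1 of 39 windows of these factors were called higher. Of all windows 0.0743%, 0.583%, 0.875% and 0.586% were. In both tables of a guide, 0.02% (sgMETTL16-1) and 0.529% (sgMETTL16-2) of all matched windows were called higher. The values of these factors are as deposited and were not read relative to the median of all enriched windows.

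For the 11 genes of granule maturation and storage, 4 of 59 windows were called lower in replicate 1 of sgMETTL16-2, where 0.965% of all windows were, and 0 in the other 3 tables, where 0.149% to 0.281% were. SRGN, the proteoglycan core protein that holds granule proteases, was at -0.26 and -0.945 in the authors' deposited table, the second in a window that was not enriched. LYST, which governs granule size, was at -0.9 and -1.45 in the authors' deposited table. Of the 9 inhibitors and counter-regulators of the proteases 7 had windows, 27, 23, 25 and 26 by table in the order used above. None was called in either direction, where 0.355%, 0.749%, 1.84% and 0.734% of all windows were. With so few windows this does not set the list apart from all windows. Among 16 other azurophil or antimicrobial proteins CST7, a cystatin, was called once, at 0.34 with sgMETTL16-1 in replicate 2 of the authors' deposited tables. That was 1 of the 48 windows of this list there, where 0.583% of all windows were called higher. Among 10 proteins of later granules CHI3L1 was called higher at 0.35 in replicate 1 and lower at -0.48 in replicate 2 of sgMETTL16-1, in windows that do not overlap, in the authors' deposited tables. These were 1 of 19 and 1 of 18 windows of that list, where 0.0743% of all windows were called higher and 0.167% lower. GFI1, SPI1, CEBPE, SRGN, LYST, CST7 and CHI3L1 were named after their values were seen.

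Which cell type markers had windows was also looked at. Between 14872 and 15212 genes had a window in each table, so having one says little about cell type. All 13 myeloid and monocytic markers, MPO and LYZ among them, had windows in every table, and 6 or 7 of them had an enriched one. Of 5 T cell markers 1 and of 4 megakaryocyte markers 1 had windows. CD3D, CD3E, CD3G and CD8A had none. Of 5 B cell markers 4 had windows, with an enriched one in 1 of 4 tables, as had the T cell marker CD2. Of 4 fibroblast markers 2 had windows and none was enriched, and of 3 eosinophil or basophil markers 1 had a window in the replicate 1 tables alone.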

How the data were processed

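Input and m6A IP libraries of NOMO-1 polyadenylated RNA were processed with STAR on GRCh38 according to the submitters' processing notes. How windows were found and annotated is not given in the sources used here. Each row of the tables the authors deposited has, per the file headers, a log2 fold change between guides, a fold enrichment (ratio of IP to input), and log10 p and log10 FDR of each. No value per library was used, so depth is unknown.

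Windows of 2 tables matched on strand, gene name and at least 0.5 of the bases of each. The counts of calls use the authors' FDR. For the two-sided p, the one-sided p adjusted over the whole table and the shift, an FDR was recomputed from the deposited p. The shift took a standard error from the deposited p and log2 fold change and assumed a normal distribution. The members and lists were chosen with earlier results of these data known. All windows of the 6 genes were described, listed genes were named when both tables of 1 guide had a call of the same sign (at most 6 per list), and the 3 genes nearest in median were named. The planned protein comparison was not run because no protein sequences were used here. Alternatives were an FDR of 0.01, a two-sided p adjusted over the table, a fold enrichment of 2, enriched windows alone, a shift by the enriched median with a two-sided p, identical rows counted once, overlaps of 0.25 and 0.8, leaving out a replicate, and, chosen after seeing the data, the one-sided p adjusted over the whole table, since the deposited FDR is smaller than that adjustment for most windows. Python 3.11.15, numpy 2.4.6, pandas 2.3.3, scipy 1.17.1 and matplotlib 3.10.9 were used, and matching, the two-sided p and the shift were tested on simulated data. Results of the erythroid marker list are not reported here.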

Additional observations from a re-analysis of the deposited data

Results flagged for a closer look

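In 2 places both tables of 1 guide lay below 0 and both tables of the other above 0, and the difference between guides was not tested. The first is the middle window of AZU1, for which the authors' deposited tables gave -0.118 and -0.116 for sgMETTL16-1, then 0.0717 and 0.0258 for sgMETTL16-2. The second is the 5′ window of ELANE, for which the authors' deposited tables gave -0.016 and -0.11 for sgMETTL16-1, then 0.308 and 0.0652 for sgMETTL16-2. Once each table's enriched median was subtracted, the split by guide was gone in both places. AZU1 was then at -0.0801, -0.25, -0.0533 and -0.109, and ELANE at 0.0219, -0.244, 0.183 and -0.0698. No value here was called, and the blocks of each window differ between tables.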

How the results depend on the processing

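No paired analysis was possible because the deposited tables hold comparisons and no value per library. The 2 middle CTSG decreases and the 3′ CTSG increase kept their calls under an FDR of 0.01, a two-sided p, the shift and the one-sided p adjusted over the whole table. With an FDR of 0.01 the higher calls were 0 in replicate 1 and 1 in replicate 2 of sgMETTL16-2. A two-sided p left 1 higher call in replicate 2 of sgMETTL16-2. The shift left 0 higher calls in replicate 1 and 1 in replicate 2 of sgMETTL16-2. It put the 4-block CTSG window of replicate 1 at -0.0591 and the 5′ CTSG window of replicate 2 at -0.012, and neither was then called. A fold enrichment of at least 2 left 0 calls in each table and direction, since all called windows were below it. In place of the FDR of IP over input it counted 6 and 2 windows for sgMETTL16-1 and 3 and 7 for sgMETTL16-2, against 8, 8, 7 and 8. These were other windows, all of MPO and LYZ, since no enriched window reached a fold enrichment of 2. An overlap of 0.25 gave 1 window called higher in both sgMETTL16-2 tables, since the 4-block CTSG window then matched the 5′ window. Without 1 replicate the calls left ranged from 0 to 1 lower for each guide and from 1 to 2 higher for sgMETTL16-2.

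The leading window of a gene is the one with the highest mean fold enrichment among those matched in the most tables. For MPO (2 tables) and LYZ (3 tables) it was not enriched, so these are not measures like those of the other genes. The mean of the leading window over its tables moved from -0.59 to -0.72 with the shift and to -0.45 over all windows for MPO. For PRTN3 it moved from -0.031 to -0.12 and 0.055. Leaving out a replicate gave -0.022 to 0.15 for ELANE, -0.062 to 0.00055 for PRTN3, 0.047 to 0.16 for AZU1, 0.025 to 0.26 for CTSG and 0.25 to 1.39 for LYZ. That 1.39 is the value of sgMETTL16-1 replicate 1 alone. The median of all windows of the 6 genes was -0.0302, 0.107, 0.0859 and 0.0941 in enriched windows alone. With 1 value per gene it was -0.0194, -0.0200, 0.105 and 0.0941, and without LYZ -0.0194 and -0.104 with sgMETTL16-1. The cause was not tested for any of these moves other than those stated. Depth per library is unknown, so the precision it allows is not known.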

Other observations

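CFD (complement factor D, a serine protease) is the next gene downstream of ELANE in the same cluster, and was looked at after its values were seen. It had 3, 2, 2 and 3 windows in the authors' deposited tables of sgMETTL16-1 replicates 1 and 2 and sgMETTL16-2 replicates 1 and 2. Its only call was higher, at 0.51 (FDR = 0.0195), in chr19:860978-863129 of sgMETTL16-2 replicate 1, where the window was not enriched (FDR of IP over input of 0.0851) in the authors' deposited table. In replicate 2 of that guide a window from the same start, chr19:860978-861906, was enriched and at 0.035 (FDR = 0.65) in the authors' deposited table.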
